A study of Homo sapiens with 6 samples.

Results

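The genes described here encode carrier and coagulation proteins of blood plasma. They were chosen by symbol as 37 of the 57500 genes counted in each library, and all 37 symbols matched 1 gene. The list holds 16 plasma carriers and other transport proteins, the 3 fibrinogen chains and 10 clotting factors and cofactors. It also holds 6 anticoagulants, counting the protein C inhibitor gene SERPINA5 among them, and 2 genes of fibrinolysis. Hepatocytes make nearly all of these proteins, export them through the endoplasmic reticulum and Golgi, and release them into the circulation. Albumin, transferrin, transthyretin and the hormone-binding globulins carry fatty acids, metals, hormones and vitamins. The clotting factors are mostly inactive protease precursors that activate one another until thrombin turns fibrinogen into fibrin. Antithrombin, heparin cofactor II, protein C and their relatives hold that chain in check, and plasmin dissolves the clot.

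The cells were HepG2, an established human hepatocarcinoma line that secretes many plasma proteins, without any engineered genotype. One group of 3 libraries came from cells given vehicle, and the other group of 3 from cells given glycine at 10 mM for 24 h. Both groups were cultured in the same medium with serum, which itself holds glycine, so the comparison is between added glycine and the glycine already present. HepG2 is a tumour line, so its plasma protein levels are not those of normal liver. The labels describe the replicates as independent. The study's methods use that word for experiments on separate days, and say of its cell assays that fresh cells were seeded and controls were part of every run, but no source ties a replicate number of these libraries to a day. The p-values measure the spread between these libraries. In such bulk libraries, fewer cells that express a gene and less RNA per cell cannot be told apart.

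Assigned read counts ranged from 31795489 to 58815986 per library, so 1 count equalled between 0.0171 and 0.0313 CPM, the scaled count per library size used throughout. Of the 57500 genes, 15492 had enough counts to be tested. All 8 hepatocyte and hepatoma markers were detected in every library, with summed levels of 12642 to 17820 CPM with vehicle and 13979 to 16438 CPM with glycine. Of the 4 leukocyte markers, CD3E was at 0 in all 6 libraries and PTPRC did not exceed 0.086 CPM. CD14 and CD68, at means of 2.74 and 1.33 CPM with vehicle, were detected in every library and are taken up below. Vehicle library 2 stood apart for the genes described here, as set out below with the albumin values, and results that rest on it are given with and without it.

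With glycine, 10 of the 35 members that could be tested fell and 2 rose, by edgeR's quasi-likelihood test with Benjamini-Hochberg adjustment over all 15492 tested genes and a threshold of 0.05. The members that fell make up 28.6% of those tested, beside a background of 6.54% of all tested genes called lower. The members that rose make up 5.71%, beside 6.71% of all tested genes called higher. The 10 lower members included the carriers SERPINA6, TTR, HPX and GC, the factor X gene F10 and the plasmin inhibitor SERPINF2. The others were the anticoagulants PROZ, SERPINC1 and SERPIND1, and the protein C inhibitor SERPINA5, which is listed with them. The 2 higher members were CP, encoding ceruloplasmin, and FGA, encoding the fibrinogen alpha chain. The changes were moderate. Only GC, SERPINA5 and SERPINA6 among the called members differed by at least 1.5-fold between groups.

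The median log2 change of the 35 tested members was -0.15, beside 0.00 over all tested genes, and single members ranged from -1.70 for GC to 0.67 for F13B. Of these members, 22 had a log2 change below 0 and 13 above 0. All 12 called members had groups that did not overlap. Counting HRG as well, 11 members, or 31.4% of those tested, had every glycine library below every vehicle library, which was also true of 14.4% of all tested genes. The opposite arrangement was seen for CP, FGA and F13B, 8.57% of members, and for 17.2% of all tested genes. Among members with a mean of at least 10 CPM 8 of 26 fell, or 30.8%, beside 8.07% of the 9111 genes at that level. By role, 4 of 6 genes listed as anticoagulants, 4 of 16 carriers and 1 of 9 tested clotting factors fell. The 1 tested gene of fibrinolysis also fell, and 0 of 3 fibrinogen chains did. The anticoagulant list includes SERPINA5, whose product, the protein C inhibitor, acts against an anticoagulant. When 1 library was left out, the number of listed anticoagulants that fell was 2 to 4, and that of carriers 3 to 8. The 8 carriers were counted without vehicle library 2, where ALB, AFP, TF and AMBP were added. DESeq2 and limma with voom each called 2 members higher and 10 lower as well.

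**Figure D1:**
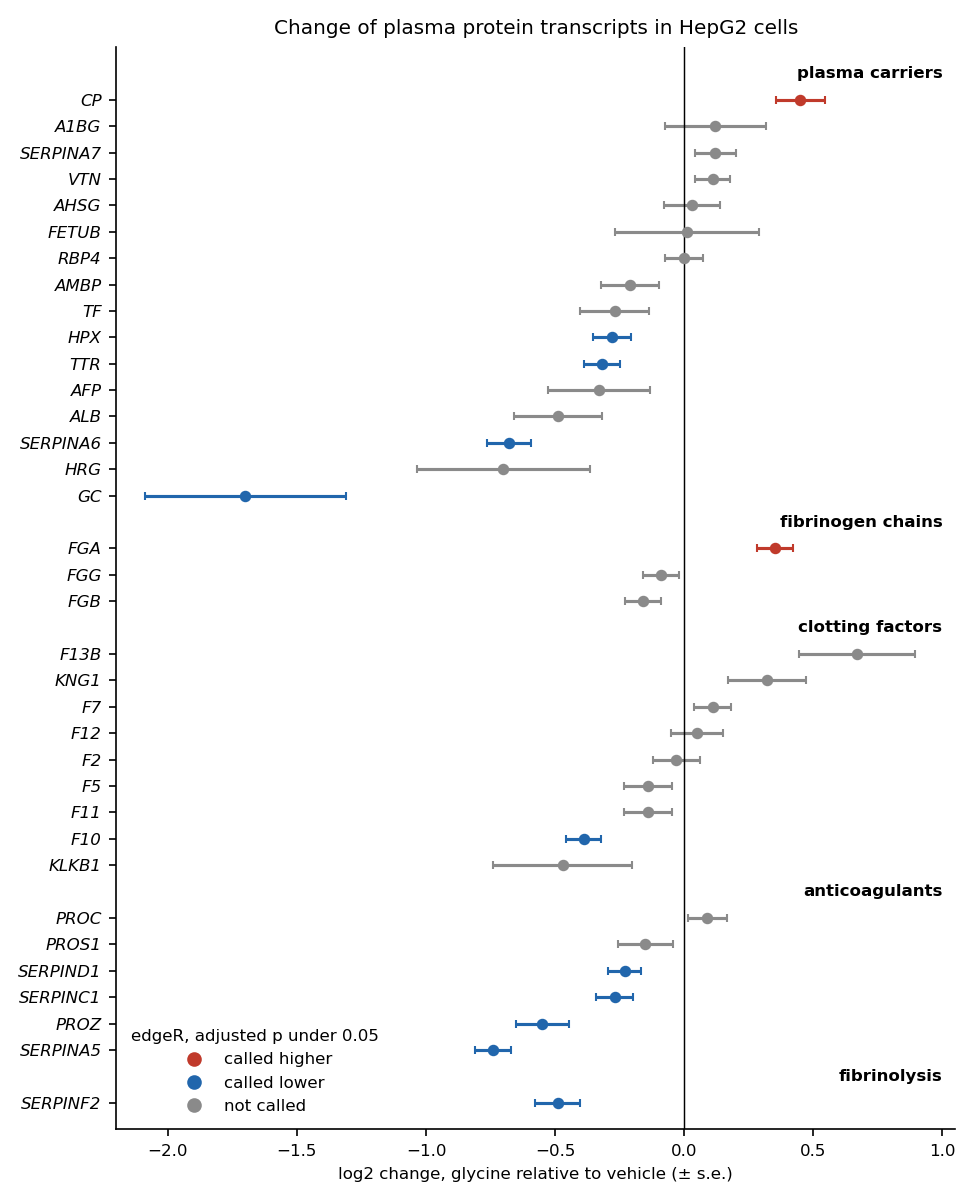
Log2 change of each tested member, glycine relative to vehicle, with its standard error from edgeR (3 libraries per group), ordered within each role. Blue points were called lower, red points higher and grey points neither. The 10 blue points include 4 of the 6 genes listed as anticoagulants, among them SERPINA5. With 1 library left out, 2 to 4 of these 6 were called lower. Over all tested genes, 6.54% were called lower.

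Levels differed by several orders of magnitude between members. On the RPKM scale, which divides CPM by the exon length in kilobases, ALB was the most abundant member, at 2277 ± 598 with vehicle and 1622 ± 257 with glycine (SD, n = 3 each). AHSG, encoding fetuin-A, a carrier that keeps calcium phosphate in solution, followed at 1093 ± 162 and 1118 ± 83.4 RPKM. AMBP, the precursor of alpha-1-microglobulin and bikunin, stood at 847 ± 128 and 731 ± 77.3 RPKM. The fetal albumin relative AFP came next, at 636 ± 194 and 506 ± 114 RPKM, and was below AMBP in each of the 6 libraries. The retinol carrier RBP4 was at 396 ± 29.7 and 396 ± 15.4 RPKM, and the iron carrier TF at 240 ± 50.1 and 199 ± 20.2 RPKM.

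Several pairs of genes in the middle of this order stood differently in the groups, of which FGA and SERPINA5 are 1 example. FGA was below SERPINA5 with vehicle, at 155 ± 5.73 against 200 ± 11.1 RPKM, and above it with glycine, at 197 ± 8.14 against 120 ± 1.67 RPKM. At the low end, factor XIII subunit B (F13B), prekallikrein (KLKB1), GC and the histidine-rich glycoprotein gene HRG were all below 1 RPKM in both groups. Plasminogen (PLG) had 6, 6 and 8 counts with vehicle and 2, 10 and 12 with glycine, and factor IX (F9) had 0, 0 and 0 against 1, 1 and 0. Neither was tested. A count of 0 in the vehicle libraries allows a F9 level of up to 3 counts, between 0.0835 and 0.086 CPM. HepG2 cells held abundant mRNA for albumin, transferrin, prothrombin and fibrinogen and almost none for factor IX and plasminogen, in either group.

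**Figure D2:**
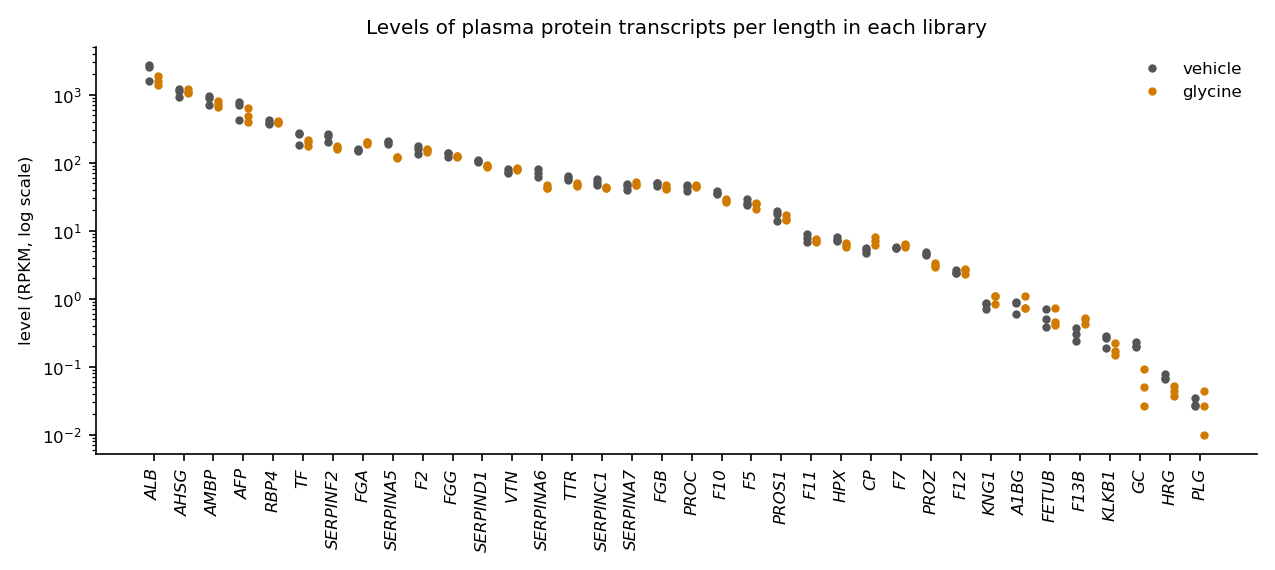
Level of each member in every library, in RPKM on a log axis, with grey points for the 3 vehicle and orange points for the 3 glycine libraries and members ordered by mean level. F9 is left out because 4 of its 6 libraries were at 0, and the grey point that lies apart from its group for ALB, AFP and TF is vehicle library 2.

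Albumin mRNA was lower on average with glycine, but the groups overlapped. ALB measured 9038, 5366 and 8660 CPM in vehicle libraries 1, 2 and 3 and 4682, 5344 and 6405 CPM in the glycine libraries. Vehicle library 2 lay within the glycine range and the other vehicle libraries lay above it. The log2 change was -0.49 ± 0.17 (adjusted p = 0.0764). It was called lower with the replicate number as a block (-0.46, adjusted p = 0.0402) and without vehicle library 2 (-0.69, adjusted p = 0.00238), and over the other fits without 1 library it lay between -0.63 and -0.37. ALB alone took 0.906%, 0.525% and 0.868% of all counts in the vehicle libraries and 0.47%, 0.532% and 0.65% in the glycine libraries.

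The same library was low for other abundant members. AFP measured 2569, 1359 and 2289 CPM with vehicle and 1310, 1589 and 2047 CPM with glycine, a log2 change of -0.33 ± 0.196 (adjusted p = 0.308). TF measured 2268, 1561 and 2336 CPM against 1512, 1741 and 1850 CPM, a log2 change of -0.27 ± 0.132 (adjusted p = 0.205). AMBP measured 1821, 1434 and 1933 CPM against 1341, 1656 and 1482 CPM, a log2 change of -0.21 ± 0.111 (adjusted p = 0.244). In each of these 3 genes the groups overlapped only through vehicle library 2. Without it the log2 changes were -0.56 for AFP (adjusted p = 0.0228), -0.44 for TF (adjusted p = 0.00869) and -0.33 for AMBP (adjusted p = 0.0358), and all 3 were called lower. Leaving out another library could move these values the other way, to -0.16 for AFP without vehicle library 1 (adjusted p = 0.699) and -0.20 without glycine library 1 (0.618), and without vehicle library 3 to -0.25 for AFP (0.485), -0.17 for TF (0.464) and -0.12 for AMBP (0.538). Among all 35 tested members, vehicle library 2 was the lowest vehicle library for 26, or 74.3%, beside 33.6% of all tested genes. Its level was a median of 90.4% of the mean of the other vehicle libraries over the members and 99.9% over all tested genes. What set this library apart was not tested.

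For AHSG and RBP4 no difference was detected. AHSG measured 2689, 2146 and 2880 CPM with vehicle and 2448, 2607 and 2838 CPM with glycine (log2 change 0.03 ± 0.108, adjusted p = 0.884). RBP4 measured 560, 539 and 622 CPM against 548, 591 and 581 CPM (log2 change 0.00 ± 0.0739, adjusted p = 0.999). For both genes the glycine libraries lay inside the vehicle range, and the sign of the small difference turned when single libraries were left out. All 37 members together took 2.35%, 1.62% and 2.35% of counts with vehicle and 1.58%, 1.74% and 1.95% with glycine.

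**Figure D3:**
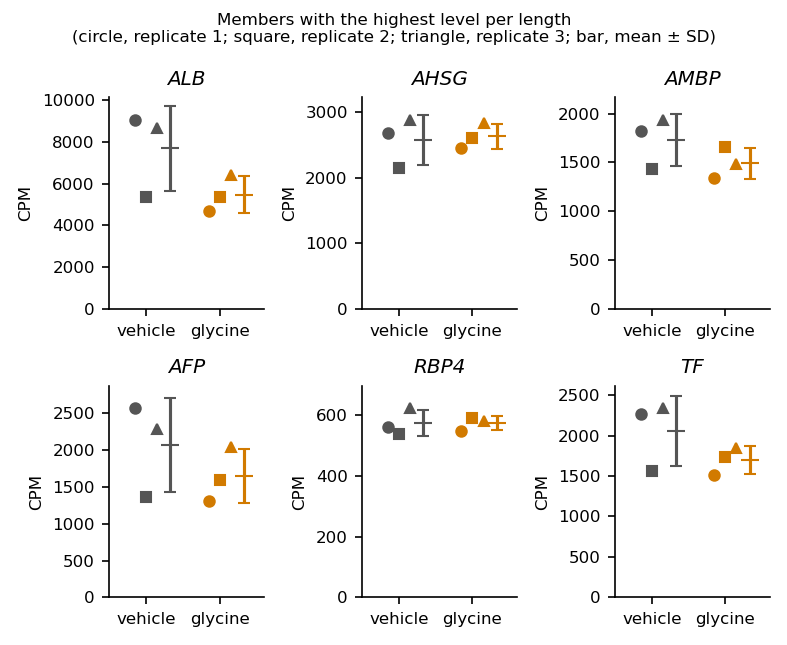
CPM of the 6 members with the highest level per length, with circles, squares and triangles for replicates 1, 2 and 3 and bars for the mean ± SD of 3 libraries. The grey square, vehicle library 2, lies below the other grey points in all 6 panels, and at 5366 CPM of ALB it is within the glycine range.

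Among the other carriers, cortisol-binding globulin and transthyretin fell. SERPINA6 (chr14:94304248-94323394, minus strand, GRCh38), which encodes the globulin that carries cortisol, measured 132, 114 and 147 CPM with vehicle and 79.4, 79.7 and 87.3 CPM with glycine. Every glycine library was below every vehicle library. The log2 change was -0.68 ± 0.0855 (adjusted p = 0.000175), a level 1.6-fold lower. TTR (chr18:31591726-31599021, plus strand), encoding transthyretin, the carrier of thyroxine and of the retinol-binding protein, measured 127, 120 and 139 CPM against 97.6, 108 and 104 CPM. These groups did not overlap either, and TTR fell by 19.8% (log2 change -0.32 ± 0.0698, adjusted p = 0.00921). RBP4, whose protein travels bound to transthyretin, was at 574 CPM on average in both groups. SERPINA7, the thyroxine-binding globulin gene, had a log2 change of 0.12 ± 0.0791 (adjusted p = 0.351).

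HPX (chr11:6431049-6442617, minus strand), encoding the heme scavenger hemopexin, measured 26.7, 25.7 and 28.8 CPM with vehicle and 21.2, 23.7 and 22.1 CPM with glycine. The groups were separate but close, with 23.7 CPM the highest glycine and 25.7 CPM the lowest vehicle value. The log2 change was -0.28 ± 0.0745 (adjusted p = 0.0274). This call did not hold without vehicle library 1 (adjusted p = 0.0508), vehicle library 3 (0.0815), glycine library 1 (0.105) or glycine library 3 (0.0798).

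The vitamin D-binding protein gene GC (chr4:71741693-71804041, minus strand) had few reads, 19, 16 and 17 counts with vehicle and 2, 13 and 5 with glycine. These are 0.542, 0.459 and 0.473 CPM against 0.0627, 0.222 and 0.118 CPM. The glycine libraries were all lower but spread widely among themselves. The log2 change of -1.70 ± 0.39 (adjusted p = 0.0117) is the largest among the members and also the least precise of the called ones. It was -2.34 without glycine library 2 and -1.46 without glycine library 1, both still called. HRG, a binder of heme, zinc and heparin, was similarly scarce, with 12, 14 and 12 counts against 7, 11 and 11, and its log2 change of -0.70 ± 0.336 was not called (adjusted p = 0.198).

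Ceruloplasmin, a copper-containing ferroxidase, was the carrier gene that rose. CP (chr3:149162410-149222055, minus strand) measured 40.2, 37.4 and 34.5 CPM with vehicle and 51.3, 44.3 and 58 CPM with glycine. All glycine libraries were above all vehicle libraries, although they spread more widely. The log2 change was 0.45 ± 0.0936 (adjusted p = 0.00667), 1.37-fold higher. Other annotated exons overlap 19.4% of the exon length of CP, and the neighbour HPS3 on the opposite strand went from 19.5 to 17.8 CPM (log2 change -0.13 ± 0.0868, adjusted p = 0.351). The remaining carriers were not called. Vitronectin (VTN) had a log2 change of 0.11 ± 0.0677, A1BG, whose exon length is overlapped by other genes over 50.9%, one of 0.12 ± 0.195, and fetuin-B (FETUB), near 1 CPM, one of 0.01 ± 0.279.

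The 3 fibrinogen chains are assembled in equal numbers into 1 protein, and their genes lie side by side within 50 kb on chromosome 4, FGB on the plus strand and FGA and FGG on the minus strand. Of their mRNAs, only that of FGA passed the test. FGA (chr4:154583126-154590766), the alpha chain, measured 634, 588 and 615 CPM with vehicle and 808, 744 and 784 CPM with glycine. Every glycine library exceeded every vehicle library, and FGA was 1.27-fold higher (log2 change 0.35 ± 0.0694, adjusted p = 0.00541). FGB (chr4:154562956-154571086), the beta chain, measured 138, 124 and 137 CPM against 112, 116 and 128 CPM. Its groups overlapped, with a log2 change of -0.16 ± 0.0701 (adjusted p = 0.16). FGG (chr4:154604134-154612967), the gamma chain, measured 493, 434 and 495 CPM against 435, 452 and 451 CPM. The glycine values lay inside the vehicle range, and the log2 change was -0.09 ± 0.0708 (adjusted p = 0.464).

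The ratio between chains, taken per length within each library, does not depend on the scaling between libraries. FGA over FGB was 3.15, 3.25 and 3.08 with vehicle and 4.92, 4.4 and 4.18 with glycine. FGA over FGG was 1.17, 1.23 and 1.13 against 1.69, 1.5 and 1.58. Both ratios were higher in all 3 glycine libraries, by 0.51 and 0.43 on the log2 scale. The 2-sided exact permutation test over 3 against 3 libraries gave p = 0.1 for each, the smallest value it can give, and 0.125 after adjustment over the 5 ratios examined. These ratios were chosen after the values of the single genes had been seen.

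The 3 promoters are shown because only 1 of 3 genes that share a locus was called. Each is the stretch of 250 bases before the gene's start in RefSeq (GRCh38.p14), written along the gene's strand, with capitals marking matches on either strand to GTTAAT, a motif of liver promoters, TTGCNNAA, a C/EBP site, CTGGGAA, an IL-6 response element, and CAAAGTCC, an HNF4 site.
FGA, chr4:154590743-154590992, minus strand: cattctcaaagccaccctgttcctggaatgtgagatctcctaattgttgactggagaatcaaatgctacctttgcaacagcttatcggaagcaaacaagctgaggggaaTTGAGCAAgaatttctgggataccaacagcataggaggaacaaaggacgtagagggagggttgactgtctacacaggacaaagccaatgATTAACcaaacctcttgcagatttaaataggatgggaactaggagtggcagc
FGB, chr4:154562730-154562979, plus strand: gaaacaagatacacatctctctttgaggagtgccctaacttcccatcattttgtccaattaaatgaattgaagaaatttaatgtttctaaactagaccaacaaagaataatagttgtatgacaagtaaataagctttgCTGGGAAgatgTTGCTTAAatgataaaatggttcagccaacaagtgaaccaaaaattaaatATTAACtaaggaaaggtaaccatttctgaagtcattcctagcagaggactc
FGG, chr4:154612657-154612906, minus strand: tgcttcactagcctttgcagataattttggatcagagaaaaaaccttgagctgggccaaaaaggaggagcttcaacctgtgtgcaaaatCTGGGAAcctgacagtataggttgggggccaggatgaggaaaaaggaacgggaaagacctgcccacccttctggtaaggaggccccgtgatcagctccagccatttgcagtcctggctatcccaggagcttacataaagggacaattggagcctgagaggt
FGA and FGB each held a GTTAAT and a C/EBP match, while FGB and FGG each held an IL-6 element match and FGA held none. Matches are descriptions of these letters and not evidence of binding. The FGG window lies inside the span given above for the counted gene, so the bases before the outer start of that span are not shown. The FGA and FGB windows partly overlap the spans of their genes.

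Among the clotting factors, F10 was the member that fell. It encodes factor X, the protease that forms thrombin with factor V as cofactor, and lies between F7 and PROZ in a row of 3 genes over 66.6 kb of chromosome 13, all on the plus strand. F10 (chr13:113122814-113149529) measured 82.6, 83 and 90.6 CPM with vehicle and 64, 69.5 and 61.4 CPM with glycine. The groups were well separated, and F10 fell by 23.9% (log2 change -0.39 ± 0.0687, adjusted p = 0.00215). PROZ (chr13:113158654-113172383), encoding protein Z, the cofactor that directs an inhibitor to factor Xa, measured 8.02, 7.2 and 7.51 CPM against 5.17, 4.85 and 5.5 CPM. Its groups were also separate, and PROZ fell by 31.9% (log2 change -0.55 ± 0.103, adjusted p = 0.0033). F7 (chr13:113105788-113120681), encoding factor VII, the partner of tissue factor, measured 21.1, 20.8 and 22 CPM against 23.2, 24 and 21.7 CPM. The third glycine library lay inside the vehicle range, and the log2 change was 0.11 ± 0.0717 (adjusted p = 0.36).

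Set against F7 within each library, per length, F10 stood at 6.3, 6.43 and 6.63 with vehicle and at 4.44, 4.67 and 4.56 with glycine. PROZ stood at 0.865, 0.789 and 0.778 against 0.507, 0.461 and 0.577. Both ratios were lower in every glycine library, by -0.50 and -0.66 on the log2 scale (2-sided exact permutation p = 0.1 each, the smallest possible, 0.125 after adjustment over 5 ratios). They too were chosen after the values of the single genes had been seen, and both are set against the same F7 values. The promoters of the 3 neighbours are shown for the same reason as those of fibrinogen, with the same marks.
F7, chr13:113105541-113105790, plus strand: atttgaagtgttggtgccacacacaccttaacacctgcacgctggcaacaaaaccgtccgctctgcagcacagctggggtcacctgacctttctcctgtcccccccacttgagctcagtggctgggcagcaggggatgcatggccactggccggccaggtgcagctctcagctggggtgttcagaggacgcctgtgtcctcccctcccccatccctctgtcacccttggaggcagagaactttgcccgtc
F10, chr13:113122549-113122798, plus strand: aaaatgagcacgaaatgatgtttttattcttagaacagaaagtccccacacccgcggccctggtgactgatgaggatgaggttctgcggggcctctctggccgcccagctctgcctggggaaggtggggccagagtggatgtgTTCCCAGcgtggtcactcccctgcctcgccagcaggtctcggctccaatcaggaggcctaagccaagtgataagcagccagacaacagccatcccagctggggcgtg
PROZ, chr13:113158398-113158647, plus strand: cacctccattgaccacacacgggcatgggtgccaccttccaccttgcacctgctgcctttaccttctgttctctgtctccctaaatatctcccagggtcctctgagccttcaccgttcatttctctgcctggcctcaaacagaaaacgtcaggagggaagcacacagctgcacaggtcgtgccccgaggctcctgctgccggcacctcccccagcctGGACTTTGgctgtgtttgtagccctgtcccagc
F10 held an IL-6 element match, PROZ an HNF4 match, and F7 none of the 4 motifs.

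The other clotting genes were not called. Prothrombin (F2), the precursor of thrombin and the clotting factor with the highest level per length, had a log2 change of -0.03 ± 0.0909 and measured 341 to 445 CPM with vehicle and 365 to 412 CPM with glycine. The cofactor gene F5 had a log2 change of -0.14 ± 0.0934. The contact system, which starts clotting on charged surfaces, comprised F11 (-0.14 ± 0.0915), F12 (0.05 ± 0.102), KLKB1 (-0.47 ± 0.269) and the kininogen gene KNG1 (0.32 ± 0.15). None of these 4 was called by edgeR, none had an unadjusted p under 0.05, and DESeq2 and limma with voom called 0 as well. F13B, the carrier subunit of the fibrin crosslinker factor XIII, had 32, 26 and 21 counts with vehicle and 33, 72 and 54 with glycine, or 0.913, 0.745 and 0.584 against 1.03, 1.23 and 1.28 CPM. Its glycine libraries were all above its vehicle libraries, and its log2 change of 0.67 ± 0.224 missed the threshold (adjusted p = 0.0657).

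Grouped by chemistry instead, F2, F7, F10, PROC, PROS1 and PROZ are vitamin K dependent proteins, whose glutamate residues are carboxylated before secretion. F9 belongs to them too but was not tested. Of the 6 tested genes 2 fell, or 33.3% beside 6.54% of all tested genes, and none rose. The genes that fell were F10 and PROZ, which are neighbours on chromosome 13. The protein C gene PROC had a log2 change of 0.09 ± 0.0741, and PROS1, encoding protein S, the cofactor of activated protein C, one of -0.15 ± 0.105. Neither was called (adjusted p = 0.464 and 0.385).

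The anticoagulants and serpins included the members with the largest falls after GC. Serpins are suicide inhibitors of serine proteases, although SERPINA6 and SERPINA7 have become hormone carriers. SERPINA5 (chr14:94561442-94593120, plus strand), encoding the protein C inhibitor, measured 754, 712 and 796 CPM with vehicle and 449, 459 and 447 CPM with glycine. The glycine libraries lay close together and far below the vehicle libraries. The log2 change was -0.74 ± 0.069 (adjusted p = 1.32e-05), 1.67-fold lower, the smallest p of all members. SERPINF2 (chr17:1742836-1755268, plus strand), encoding alpha-2-antiplasmin, the fast inhibitor of plasmin, measured 568, 478 and 616 CPM against 376, 398 and 408 CPM. These groups were also separate, and SERPINF2 was 1.41-fold lower (log2 change -0.49 ± 0.0877, adjusted p = 0.00251).

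Antithrombin and heparin cofactor II, 2 heparin-dependent thrombin inhibitors, had smaller log2 changes. SERPINC1 (chr1:173903804-173917378, minus strand), encoding antithrombin, measured 90.5, 83.2 and 101 CPM with vehicle and 75.5, 77.1 and 74.4 CPM with glycine (log2 change -0.27 ± 0.0723, adjusted p = 0.0247). SERPIND1 (chr22:20773879-20787720, plus strand), encoding heparin cofactor II, measured 258, 271 and 276 CPM against 238, 225 and 220 CPM (log2 change -0.23 ± 0.0633, adjusted p = 0.0274). In both genes the groups did not overlap, and the falls were 17.2% and 15%. Both calls depended on single libraries. SERPINC1 was called without vehicle library 2 but missed the threshold without vehicle library 1 (adjusted p = 0.051), vehicle library 3 (0.0765) or glycine library 1 (0.0696), 2 (0.0528) or 3 (0.0768). SERPIND1 missed it without vehicle library 3 (0.0688) or glycine library 2 (0.0878) or 3 (0.102), and with the replicate number as a block (0.0584).

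In all, 5 of the 6 serpins among the members fell, or 83.3% beside 6.54% of all tested genes, and SERPINA7 was not called. The number was 3 without vehicle library 3, glycine library 2 or glycine library 3, where SERPINC1 and SERPIND1 lost their calls. Summed over the 6 anticoagulants, the share of all counts was 0.131%, 0.12% and 0.138% with vehicle and 0.0944%, 0.094% and 0.0951% with glycine, so the ranges were apart. SERPINA5 was the largest part of this sum, at a mean of 754 CPM with vehicle and 451 CPM with glycine. SERPIND1, the next in mean CPM, had 268 and 228 CPM. The summed fibrinogen chains showed the opposite order, 0.127%, 0.112% and 0.125% against 0.136%, 0.131% and 0.138%. Of these chains, only FGA had a log2 change above 0, at 0.35, while FGB and FGG were at -0.16 and -0.09.

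**Figure D4:**
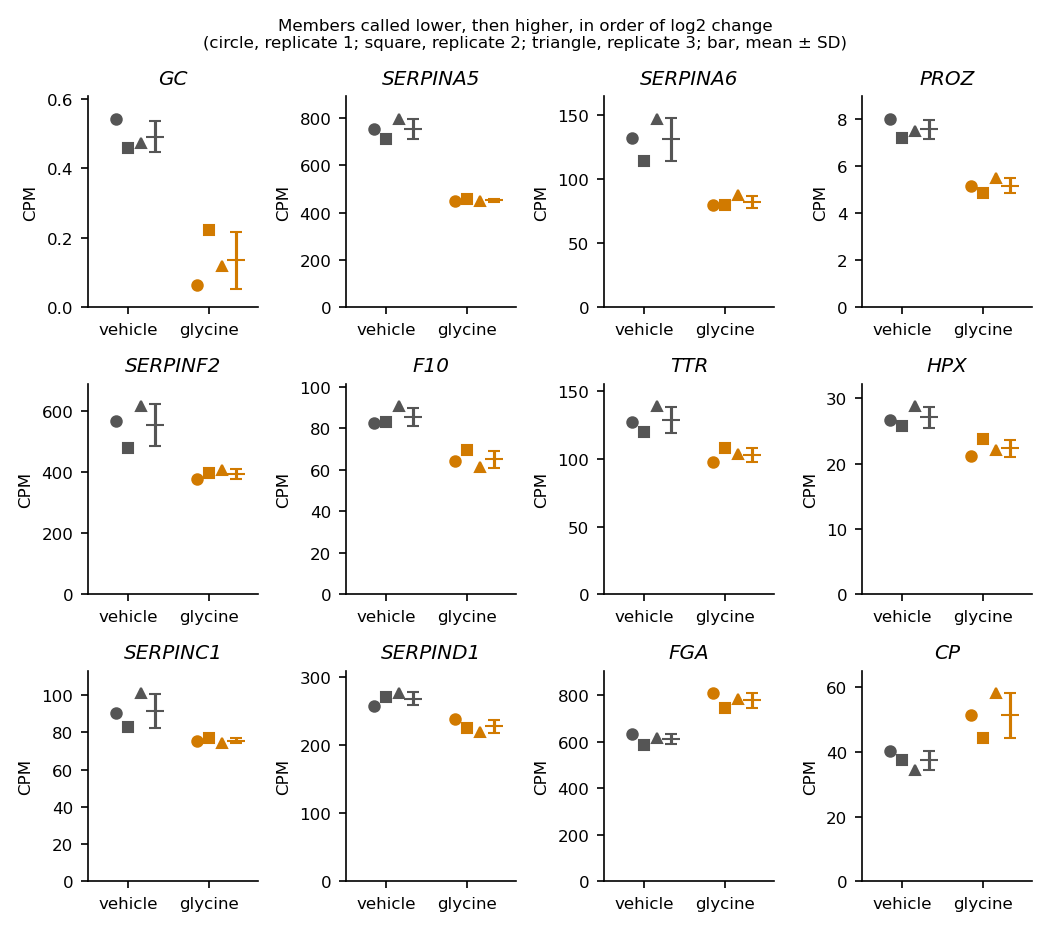
CPM of the 12 called members on axes that start at 0, with circles, squares and triangles for replicates 1, 2 and 3 and bars for the mean ± SD of 3 libraries. In the first 10 panels, from GC to SERPIND1, the orange glycine points are all below the grey vehicle points, and for FGA and CP they are all above.

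The promoters of the 2 serpins with the largest falls are shown because both lie in 1 row of serpin genes on chromosome 14. The marks are those used for fibrinogen.
SERPINA6, chr14:94323337-94323586, minus strand: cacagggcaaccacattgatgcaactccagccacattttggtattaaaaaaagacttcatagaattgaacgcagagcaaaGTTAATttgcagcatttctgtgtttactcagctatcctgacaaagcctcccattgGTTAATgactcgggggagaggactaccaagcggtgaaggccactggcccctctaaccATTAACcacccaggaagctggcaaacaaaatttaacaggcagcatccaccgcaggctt
SERPINA5, chr14:94581176-94581425, plus strand: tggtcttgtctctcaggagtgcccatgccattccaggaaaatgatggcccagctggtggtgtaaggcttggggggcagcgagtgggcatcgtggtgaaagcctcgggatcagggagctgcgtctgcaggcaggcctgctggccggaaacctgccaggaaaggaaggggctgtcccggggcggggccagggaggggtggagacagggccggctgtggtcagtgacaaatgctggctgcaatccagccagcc
SERPINA6 held 3 matches to GTTAAT, whereas SERPINA5 held none of the 4 motifs. The windows of these genes thus shared no marked motif. The SERPINA6 window partly overlaps the span given above for its gene. The SERPINA5 window precedes a RefSeq start that lies inside the span given above for the counted gene. The bases before the outer start of that span were not searched for this gene.

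SERPINA6 and SERPINA5 belong to a row of 9 serpin genes over 344 kb of chromosome 14, which was examined after the values of both had been seen. SERPINA4, the kallistatin gene that overlaps SERPINA5 at its start, went from 34.9 to 25 CPM (log2 change -0.48 ± 0.0707, adjusted p = 0.000624). SERPINA12, encoding vaspin, went from 1.6 to 0.85 CPM (log2 change -0.94 ± 0.25, adjusted p = 0.0252). Of the other genes in the row, none was called. SERPINA1, the alpha-1-antitrypsin gene at 5666 CPM in the vehicle group, had a log2 change of -0.10 ± 0.0855 (adjusted p = 0.504). SERPINA10, SERPINA11 and SERPINA3 had log2 changes of 0.05, 0.16 and 0.11, and SERPINA9 was not tested. Other exons overlap 3.5% of the exon length of SERPINA5.

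In the albumin row on chromosome 4, ALB, AFP and the vitamin E-binding afamin gene AFM (log2 change -0.43 ± 0.217, adjusted p = 0.23) all had values below 0 that were not called. The ratio of ALB to AFP per length was 3.4, 3.81 and 3.65 with vehicle and 3.45, 3.25 and 3.02 with glycine, which overlap (exact permutation p = 0.2). None of AHSG, FETUB, HRG and KNG1, the cystatin-domain genes that follow one another within 131 kb of chromosome 3, was called by edgeR, none had an unadjusted p under 0.05, and DESeq2 and limma with voom called 0. The unadjusted edgeR p was close to 0.05 for KNG1 (0.0512) and HRG (0.0565). Over all tested genes, 13.3% were called in either direction.

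**Figure D5:**
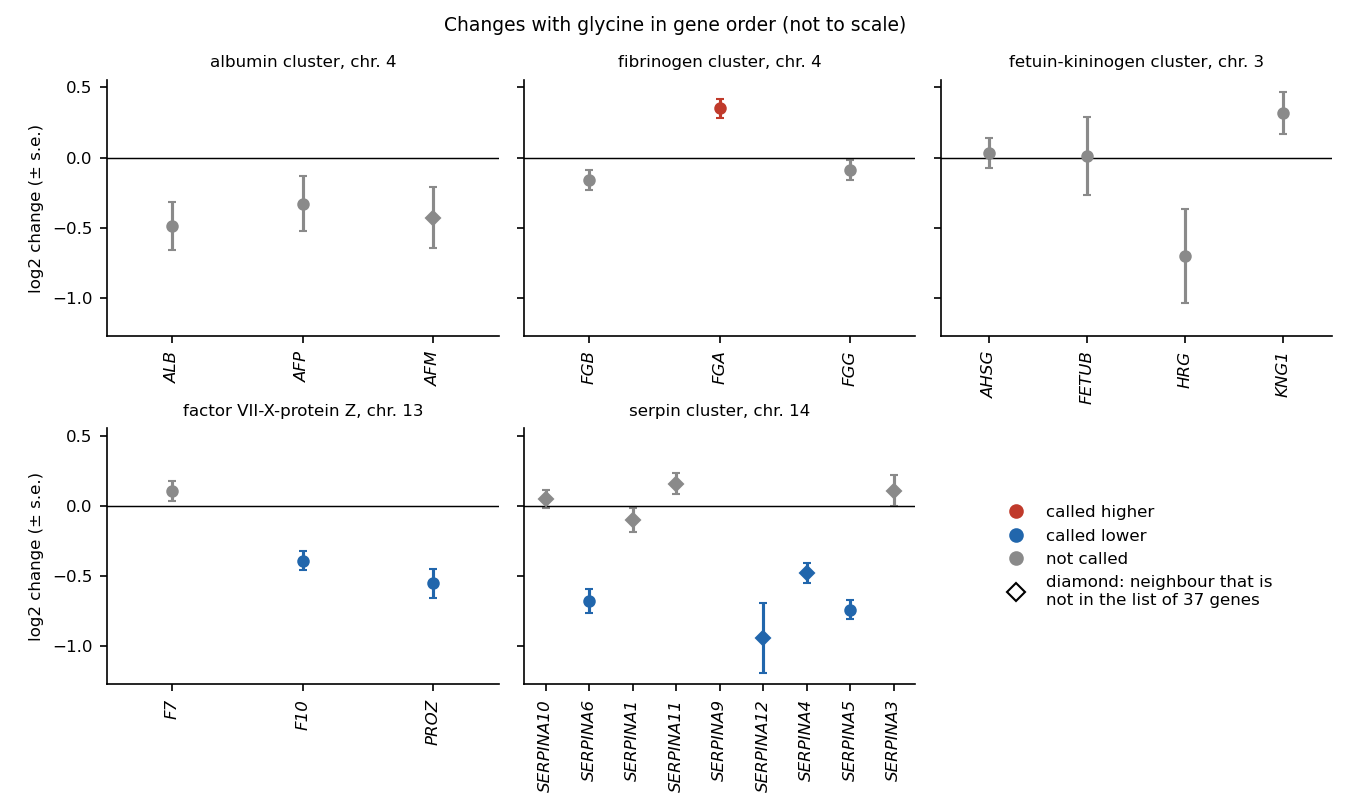
Log2 change with its standard error for members (circles) and their neighbours outside the list (diamonds), in gene order within 5 clusters and not to scale. FGA rose while FGB and FGG were not called, and F10 and PROZ fell while F7 was not called. Of the 9 serpin genes on chromosome 14, 4 fell and SERPINA9 was not tested. Over all tested genes, 6.54% were called lower. The serpin row was examined after the falls of SERPINA5 and SERPINA6 had been seen.

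Across all members, liver-type motifs were common in the 250 bases before the start. RefSeq windows were found for 32 members, 39 windows in all, and not for GC, TTR, CP, SERPINC1 and SERPINF2. GTTAAT or its complement was present in 28.2% of member windows and in 6.24% of the 34943 windows of all genes. TTGCNNAA was present in 38.5% against 9.06%, CTGGGAA in 23.1% against 9.16%, and CAAAGTCC in 5.13% against 1.02%. TATAAA on the gene's strand was present in 17.9% against 6.82%. Among the called members with a window, GTTAAT was present for SERPINA6, which fell, and FGA, which rose. It was also present for ALB, AFP, SERPINA7, FGB, F2, F13B, KLKB1 and PLG, of which none was called. No test was made of their relation to the changes.

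Genes that act on these proteins were examined from lists given by function. In the list for the vitamin K cycle and carboxylation, which also holds FURIN and CALU, 4 of 7 genes fell and none rose. This is 57.1% beside 6.54% of all tested genes, and the median log2 change was -0.23. GGCX, the carboxylase itself, measured 173, 187 and 176 CPM with vehicle and 142, 145 and 138 CPM with glycine (log2 change -0.34 ± 0.061, adjusted p = 0.00276). FURIN, the protease that removes the propeptides of factors such as factor X, measured 406, 408 and 392 against 274, 295 and 266 CPM (log2 change -0.53 ± 0.0656, adjusted p = 0.000152). Both had separate groups and kept their calls in all alternatives tried. CYP4F2, which degrades vitamin K, and CALU, encoding calumenin, were near the threshold (adjusted p = 0.0444 and 0.0483). CYP4F2 lost its call whichever library was left out, and CALU did so for each except vehicle library 2, leaving 2 or 3 of the 4. The vitamin K reductase VKORC1 had a log2 change of -0.06 ± 0.0719. VKORC1L1 and AIFM2, also in the list, had log2 changes of 0.09 ± 0.0652 and -0.13 ± 0.067. VKORC1, VKORC1L1 and AIFM2 were not called.

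Among 18 tested partners of clotting and fibrinolysis, 6 rose and 2 fell, or 33.3% and 11.1% beside 6.71% and 6.54% of all tested genes, with a median log2 change of 0.21. F2RL1, the protease-activated receptor 2 gene, rose from 45.4 to 89.6 CPM (log2 change 0.98 ± 0.0693, adjusted p = 1.77e-06). SERPINE2, encoding a thrombin inhibitor of cell surfaces, rose from 51.2 to 79.6 CPM (0.64 ± 0.0643, adjusted p = 2.76e-05), and ANXA2, a plasminogen receptor subunit, from 127 to 183 CPM (0.52 ± 0.0747, adjusted p = 0.00048). SERPINE2 is a serpin too, and it changed in the direction opposite to the 5 serpin members that fell. HPN, the membrane protease hepsin, fell from 77.3 to 49 CPM (-0.66 ± 0.0759, adjusted p = 8.59e-05). The other gene that fell, VWF, was named after its values were seen. It was below 1 CPM, and its call was lost without vehicle library 1 or 3 or any single glycine library. SERPINB2, among the genes that rose, was likewise named after its values were seen and was below 1 CPM. Its call was lost without vehicle library 3 or glycine library 3.

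Of 21 other plasma proteins made by liver, 5 fell and 1 rose, or 23.8% and 4.76% beside the same background, with a median log2 change of -0.10. Beside SERPINA4, these were AGT, the angiotensin precursor, from 1274 to 969 CPM (log2 change -0.39 ± 0.0784, adjusted p = 0.00528), ITIH1, a hyaluronan-binding chain, from 6.51 to 3.95 CPM (-0.71 ± 0.121, adjusted p = 0.00191), C4BPB from 47.6 to 37.1 CPM (-0.36 ± 0.0604, adjusted p = 0.00165), and CPB2 from 58.1 to 48.5 CPM (-0.26 ± 0.066, adjusted p = 0.0196). C4BPB encodes the chain of C4b-binding protein that holds protein S, and CPB2 the fibrinolysis inhibitor TAFI. The CPB2 call was lost without vehicle library 2 (adjusted p = 0.0567) or glycine library 2 (0.0579) or 3 (0.076). The gene that rose, CPN1, was named after its values were seen (log2 change 0.27 ± 0.0827, adjusted p = 0.0454) and kept its call without vehicle library 1 and in no other fit that left out 1 library. Without vehicle library 2 the number that fell was 6 and none rose, with ITIH3 and SERPINF1 added and CPB2 and CPN1 lost.

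Genes for the receptors and export of these proteins were examined as well, and 1 of 8 tested genes in each list fell, or 12.5%, beside 6.54% of all tested genes. The receptor gene was AMN, a partner of cubilin (log2 change -0.29 ± 0.0742, adjusted p = 0.022), and its call was lost without vehicle library 3 (adjusted p = 0.0681) or glycine library 1 (0.0652) or 3 (0.0673). The number that fell was 2 without vehicle library 2, where TFR2 was added to AMN, and without vehicle library 3, where LRP1 and LRP2 took its place. The transferrin receptor gene TFRC had a log2 change of 0.04 ± 0.0773. The export gene was the COPII coat gene SEC24D, from 82.3 to 60.7 CPM (-0.44 ± 0.0806, adjusted p = 0.00294). LMAN1 and MCFD2, the cargo receptor of factors V and VIII, were at -0.12 ± 0.0755 and -0.20 ± 0.066 and were not called, although MCFD2 was called lower without vehicle library 3 and by DESeq2.

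Of 16 transcription factors of liver genes, 3 fell, or 18.8% beside 6.54% of all tested genes, and none rose, with a median log2 change of -0.13. NR1H4, the bile acid receptor FXR, fell from 41.5 to 30.7 CPM (log2 change -0.44 ± 0.0767, adjusted p = 0.0022), and FOXA3 from 59.9 to 47.7 CPM (-0.33 ± 0.0619, adjusted p = 0.00371). NR5A2 was near 1 CPM (-0.70 ± 0.21, adjusted p = 0.0445) and lost its call without any single library except vehicle library 3. HNF4A and CEBPA, which bind motifs marked above, were not called, with log2 changes of -0.20 ± 0.0783 and -0.01 ± 0.0684. Without vehicle library 3 the number that fell was 5, with ZBTB20 and ZFHX3 added.

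Markers of other cell types moved with treatment, and their part in the results was not tested. The 4 cholangiocyte markers summed to 954 to 1017 CPM with vehicle and 1184 to 1242 CPM with glycine, mostly KRT19, which rose (log2 change 0.51 ± 0.0766, adjusted p = 0.000703), while SOX9 fell (-0.26 ± 0.0652, adjusted p = 0.0186) but lost its call without vehicle library 1 or glycine library 2 or 3. The 4 leukocyte markers summed to 3.78 to 4.28 against 7.13 to 7.74 CPM, from CD14 and CD68 with CD3E at 0. CD14 rose from 2.74 to 5.39 CPM (0.98 ± 0.122, adjusted p = 0.00016), and CD68 from 1.33 to 2.07 CPM (0.63 ± 0.164, adjusted p = 0.0226). Other exons overlap 85.8% of the exon length of CD68. Its call held in no fit that left out 1 library except that without vehicle library 3. The 4 endothelial markers summed to 5.45 to 5.76 against 4.6 to 5.26 CPM, and the 4 mesenchymal markers to 27 to 31 against 21.2 to 21.9 CPM. Within the mesenchymal list PDGFRB fell (-0.66 ± 0.0811, adjusted p = 0.000137) and COL1A1 rose, from 2.15 to 4.38 CPM (1.03 ± 0.151, adjusted p = 0.000585). Of the 8 hepatocyte markers 2 fell, or 25% beside 6.54% of all tested genes. They were FABP1 (-0.47 ± 0.0752, adjusted p = 0.00109) and APOA1 (-0.26 ± 0.0811, adjusted p = 0.0483). The call of APOA1 held in no fit that left out 1 library except that without vehicle library 2. APOB was lower in vehicle library 3, at 7405 CPM, than in the other vehicle libraries, at 11666 and 13184 CPM.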

How the data were processed

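Counts of reads per gene were used as the authors deposited them, 1 table per library. According to the submitters' processing notes, the tools were Trimmomatic 0.36, STAR 2.5.2b and featureCounts of Subread 1.5.2, with genome build GRCh38. The annotation and the strand setting of the counting are not given in the sources used here, so reads of overlapping genes on opposite strands may be shared. Of 57500 gene identifiers, 56410 received a symbol from the reference tables, and 56898 were in GENCODE 29, 54773 with the same start and end.

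Genes were kept by filterByExpr of edgeR 4.0.16 (minimum count 10, minimum total 15). Counts were scaled by TMM and fitted with group alone in R 4.3.3 by glmQLFit and glmQLFTest, 2-sided, with Benjamini-Hochberg adjustment over all 15492 tested genes and a threshold of 0.05. A standard error is the log2 change divided by the square root of F. CPM and RPKM used the scaled library sizes and the exon length in the files. The common biological coefficient of variation was 7.29%. On the CPM scale 1 count was 0.0171 to 0.0313 CPM, and limits from 3 counts cover counting error only. No 2 libraries of a group agreed within sampling noise (chi-square per degree of freedom 6.97 to 26.8). Replicate numbers did not pair the libraries, since deviations of same-numbered libraries correlated at -0.0577, -0.0268 and -0.00258.

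Members and lists were chosen with earlier results of these data known, so no list was tested as a set. Values in every library are given for called members, for the 6 members highest per length, and for the albumin family and fibrinogen chains. Up to 5 called genes with the smallest p are named per further list, except for values that are not reported here. Alternatives were other scalings, other filters, DESeq2 1.42.0, limma 3.58.1 with voom, the replicate number as a block, and fits without each library in turn. The fits were tested on simulated data. Promoters came from RefSeq (GRCh38.p14). No columns of the authors' own comparisons were used.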

Additional observations from a re-analysis of the deposited data

How the results depend on the processing

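The number of members that rose was 2 under every alternative except without a filter on low counts, where F13B was added (adjusted p = 0.0492) to make 3. The number that fell was 10 under DESeq2 size factors, upper-quartile and total count scaling, TMM without the members, DESeq2's Wald test, limma with voom and the replicate block, 9 with a minimum count of 50, where GC could not be tested, 13 without a filter, and 7 to 14 when 1 library was left out, the highest being without vehicle library 2. The replicate block removed SERPIND1 (log2 change -0.23, adjusted p = 0.0584) and added ALB (-0.46, adjusted p = 0.0402), and it changed no other member's call. Without a filter, ALB (adjusted p = 4.14e-08), AFP (0.00074) and TF (0.00925) were called lower. TTR, CP, SERPINA6, FGA, F10, PROZ, SERPINA5 and SERPINF2 kept their calls in all 15 alternatives, and GC in the 14 in which it was tested. Total count scaling moved the share of called genes that were higher from 50.7% to 55.9%.

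The direction turned only for genes with changes near 0. RBP4 was at -0.01 with DESeq2 size factors, upper-quartile scaling, a minimum count of 50 and DESeq2's Wald test, -0.03 and -0.04 without vehicle library 1 and 2, and -0.02 without glycine library 2 or 3. FETUB was at -0.01 with voom. Without vehicle library 2, A1BG was at -0.04, AHSG at -0.08 and FETUB at -0.18. Without glycine library 3, they were at -0.12, -0.03 and -0.31. Without vehicle library 3, FETUB was at -0.04 and F2 at 0.05. Over the 6 fits without 1 library, RBP4 ranged from -0.04 to 0.06, A1BG from -0.12 to 0.25, AHSG from -0.08 to 0.12, FETUB from -0.31 to 0.26 and F2 from -0.13 to 0.05. The cause was not tested. The low counts of GC, HRG, F13B and KLKB1 limit precision.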
